A study of Mus musculus with 7 samples.

Results

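The nuclear genes that encode the subunits of the mitochondrial respiratory chain and of ATP synthase were followed in the cerebral cortex of mice at postnatal day 7. They were chosen by symbol alone, as the Nduf subunit genes of the a, b, c, s and v classes, Sdha to Sdhd, the Uqcr genes, Cyc1, Cox4 to Cox8 genes and the Atp5 genes, without Ndufa4l2 and without 14 rows whose symbol carries the pseudogene ending -ps. The rule selected 92 of the 56941 rows of the table, 41 for complex I, 4 for complex II, 9 for complex III, 20 for complex IV and 18 for complex V. Ndufa4 was placed with complex IV, of which its protein is a subunit, and Cox7a2l, whose protein helps to join complexes into supercomplexes, was kept there too. The compared groups were 3 cortex samples from mice with the P213L variant of Hnrnph2 and 4 cortex samples from wild-type (WT) mice, all at postnatal day 7. Hnrnph2 is an X-linked gene for an RNA-binding protein that acts in splicing. The labels state neither the sex of the mice, nor whether the variant was carried on 1 or on both X chromosomes, nor whether each sample came from a separate animal, so the p-values cover only the sample-to-sample spread, which may be technical. Expression is given in TPM, a level per gene length scaled to the same total in every library, and values of a gene are listed in replicate order.

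Electrons from NADH enter the chain at complex I and those from succinate at complex II. Ubiquinone carries them to complex III and cytochrome c carries them on to complex IV, where oxygen is reduced to water. Complexes I, III and IV pump protons across the inner mitochondrial membrane, and complex V, the ATP synthase, uses their return to make ATP. The nucleus encodes every subunit of complex II and most subunits of the other complexes, while the mitochondrial genome encodes the rest. In the brain this pathway supplies most of the ATP for ion pumping and synaptic transmission, and its demand increases as the cortex matures after birth.

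Of the 92 rows, 83 averaged 1 TPM or more in the 7 samples and were tested, comprising 37 of complex I, 4 of complex II, 9 of complex III, 16 of complex IV and 17 of complex V. Of these, 65 averaged at least 100 TPM. The 9 untested rows were the paralog copies Ndufa11b, Ndufb4c, Ndufb11b, Ndufs6b and Cox6c2, the tissue isoforms Cox7b2, Cox8b and Cox8c, and a second row for Atp5o that was listed at 0 in every library. None of them exceeded 1.42 TPM in any library. Mouse respiratory chain genes have many near-identical processed copies elsewhere in the genome, and the handling of reads that match several copies is not given in the sources used here, so the levels carry that uncertainty. The highest value of any left-out -ps row was 44.0 TPM.

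The upstream sequences of the members were searched for motifs of factors known to act on such genes. RefSeq windows of 250 bases before the start (build GRCm38.p6) were at hand for 68 of the 83 tested members, 73 windows in all, and a member counted once if any of its windows held the motif. The motif of NRF1 (nuclear respiratory factor 1), GCGCA and GCGC with any base between them, was found on either strand in 13 of the 68 members (19.1%), against 8.39% of 11824 tested genes with a window and 4.23% of all 27025 genes with one. The ETS motif CCGGAAG was found in 12 members (17.6%), against 14.0% of tested genes and 7.83% of all genes with a window. The cyclic AMP response element TGACGTCA was found in 4 members (5.88%), against 2.91% and 1.77%, and the YY1 motif AAGATGGC in 1 member (1.47%), against 2.22% and 1.83%. A match describes letters only and is not evidence of binding. Stretches that hold no annotated exon are printed for the most abundant member (Cox6a1), for a complex I member with an NRF1 match (Ndufs5), for the complex I member with the largest positive fold change (Ndufb2), and for 2 members whose groups did not overlap (Ndufa9 and Ndufa4). All read 5′ to 3′ on the strand of the gene, with NRF1 and TGACGTCA matches in capitals.
Cox6a1, chr5:115348982-115349129, minus strand: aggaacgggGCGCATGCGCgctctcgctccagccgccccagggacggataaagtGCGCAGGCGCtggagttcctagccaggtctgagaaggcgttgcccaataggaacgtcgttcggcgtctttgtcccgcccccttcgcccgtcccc
Ndufs5, chr4:123718203-123718436, minus strand: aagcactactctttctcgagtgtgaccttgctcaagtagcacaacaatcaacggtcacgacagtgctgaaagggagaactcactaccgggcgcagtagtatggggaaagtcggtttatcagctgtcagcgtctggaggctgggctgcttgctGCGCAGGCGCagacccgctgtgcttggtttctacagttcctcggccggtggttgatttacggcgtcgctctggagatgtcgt
Ndufb2, chr6:39592315-39592564, plus strand: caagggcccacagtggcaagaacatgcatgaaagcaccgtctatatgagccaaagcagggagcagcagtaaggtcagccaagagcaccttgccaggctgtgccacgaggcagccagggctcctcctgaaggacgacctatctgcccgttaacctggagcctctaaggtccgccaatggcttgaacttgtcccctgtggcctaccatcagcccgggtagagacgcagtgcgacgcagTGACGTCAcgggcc
Ndufa9, chr6:126849145-126849394, minus strand: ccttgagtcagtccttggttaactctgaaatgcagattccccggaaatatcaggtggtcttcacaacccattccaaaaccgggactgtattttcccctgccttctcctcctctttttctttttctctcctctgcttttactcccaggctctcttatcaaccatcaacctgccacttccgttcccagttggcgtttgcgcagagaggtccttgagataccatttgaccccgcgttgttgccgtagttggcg
Ndufa4, chr6:11907498-11907700, minus strand: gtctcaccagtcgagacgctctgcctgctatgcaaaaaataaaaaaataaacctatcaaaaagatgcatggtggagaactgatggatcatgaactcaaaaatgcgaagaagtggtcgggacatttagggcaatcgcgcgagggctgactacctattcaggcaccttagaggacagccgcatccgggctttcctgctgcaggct
The Cox6a1 stretch held 2 NRF1 matches and the Ndufs5 stretch held 1. The Ndufb2 stretch held TGACGTCA next to the start of the gene, and the Ndufa9 and Ndufa4 stretches held none of the 4 motifs.

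WT replicate 3 stood apart from the other libraries. Its log2 values correlated at 0.943 to 0.949 with those of the other 6. Estimated depth was 71.3 to 79.4 M counted units (M, 1000000) in P213L, against 57.2 M in WT replicate 3 and 66.4 to 72.6 M in the other WT libraries. Summed excitatory neuron markers stood at 1466 to 1638 TPM in P213L, against 892 TPM in WT replicate 3 and 1649 to 1706 TPM in the other WT samples, so markers of cortical excitatory neurons were present in every library. Astrocyte, oligodendrocyte precursor and inhibitory neuron sums were also lowest in WT replicate 3, at 614, 81.9 and 252 TPM. In the other WT samples they were 900 to 1069, 136 to 149 and 314 to 355 TPM. WT replicate 3 had the highest microglial and endothelial sums, at 206 and 362 TPM, but in each list only 1 gene was highest there. These were C1qa at 117 TPM and Cldn5 at 332 TPM. The microglial Csf1r and Cx3cr1 were lowest there, at 26.4 and 22.2 TPM, while P2ry12 and Tmem119 were neither. All other endothelial markers, Cdh5, Flt1 and Pecam1, were also lowest there, at 11.7, 6.59 and 12.3 TPM. Erythroid markers summed to 460 to 600 TPM in P213L, to 903 TPM in WT replicate 3 and to 415 to 492 TPM in the other WT samples. Of these, Alas2 was not raised in WT replicate 3, at 4.51 TPM, against 4.49 to 5.87 TPM in the other WT samples. Oligodendrocyte markers summed to 217 to 232 TPM in P213L and to 281 to 328 TPM in WT, and choroid plexus markers to 1241 TPM in WT replicate 2, against at most 7.52 TPM in the other libraries. The part of these differences in the results was not tested, and in bulk tissue fewer cells of a type and less RNA per cell cannot be told apart. Fold changes are therefore given with and without WT replicate 3.

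Respiratory chain transcripts made up between 2.15 and 3.52% of all TPM, and the groups overlapped. The 92 rows summed to 23315, 21512 and 21891 TPM in P213L, against 24294, 21932, 35167 and 22679 TPM in WT. As a share of all TPM this was 2.33, 2.15 and 2.19% in P213L, against 2.43, 2.19, 3.52 and 2.27% in WT. WT replicate 3 was the highest library, P213L replicate 1 lay among the other WT samples, and P213L replicates 2 and 3 lay just below them. The mean was 22239 ± 951 TPM (SD, n = 3) in P213L, against 26018 ± 6178 TPM (SD, n = 4) in WT and 22968 ± 1207 TPM without WT replicate 3.

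**Figure D1:**
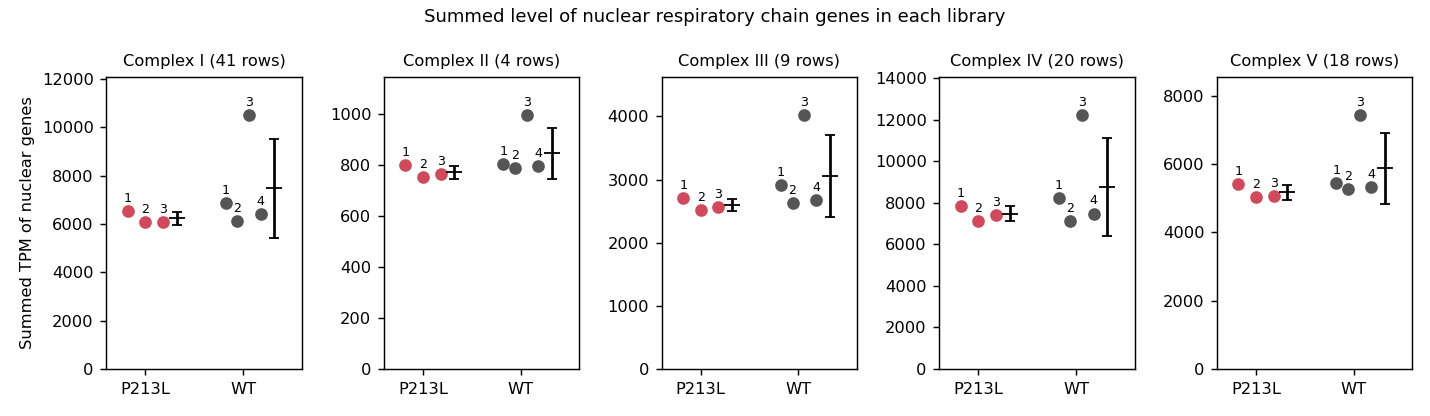
Summed TPM (y axis, linear) of the nuclear members of complexes I to V in each library, with P213L left of WT; points are samples with their replicate number and bars give mean and SD. WT replicate 3 is the highest library for each complex, for example 10505 TPM for complex I.

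No member passed the test. With limma, 0 of the 83 members and 0 of 17582 tested genes (0.0%) had an adjusted p below 0.05, and the smallest adjusted p of a member was 0.827. At an unadjusted p below 0.05, 1 member was lower in P213L (1.205% of members, against 1.38% of all tested genes) and 0 were higher (against 2.36% of all tested genes). The fold change was below 0 for 78 of 83 members (94.0%), against 36.6% of all tested genes. The median log2 fold change was -0.24 over the members and 0.07 over all tested genes. Without WT replicate 3 the medians were -0.07 and -0.001, with 69 of 83 members (83.1%) below 0, against 50.3% of all genes, and 0 members passed. Then 7 members were lower at an unadjusted p below 0.05 (8.43%, against 3.95% of all genes), namely Ndufb1, Ndufb9, Uqcrb, Ndufa4, Cox6c, Cox7c and Atp5o, and Ndufb2 was higher (against 4.7% of all genes).

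Every complex had a negative median. Median log2 fold changes were -0.23 for complex I (36 of 37 below 0), -0.15 for complex II (4 of 4), -0.22 for complex III (7 of 9), -0.28 for complex IV (15 of 16) and -0.24 for complex V (16 of 17). Leaving out WT replicate 3 brought them to -0.07, -0.05, -0.05, -0.14 and -0.07 in the same order. Under median-of-ratios scaling, which sets the typical gene equal between libraries, they were -0.32, -0.24, -0.30, -0.37 and -0.33, with the median of all genes at -0.009. The factor that divided each library was 0.812 for WT replicate 3 and 1.03 to 1.05 for the others, so this scaling raised WT replicate 3. With the same scaling but without WT replicate 3 the complex medians were -0.07, -0.05, -0.05, -0.14 and -0.07, as without scaling. When samples were weighted by how closely they followed the fit, 21 members (25.3%) passed at an adjusted p below 0.05 in limma, 17 lower (9.3% of all tested genes were) and 4 higher (13.3% were), beside 3981 of all tested genes (22.6%) in either direction. That fit gave WT replicate 3 a weight of 0.0431, P213L replicate 3 a weight of 6.90 and WT replicate 4 a weight of 5.24. The remaining libraries had weights of 0.441 to 1.25, so these calls rest largely on P213L replicate 3 and WT replicate 4.

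**Figure D2:**
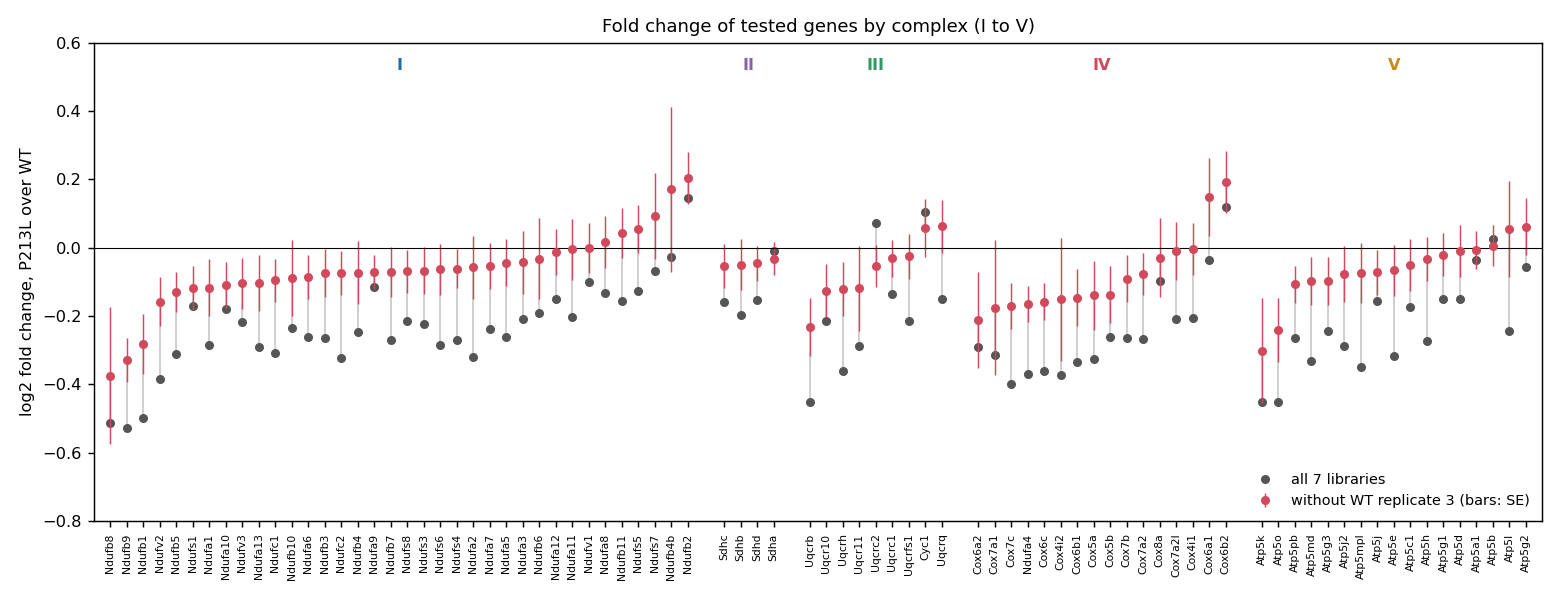
Log2 fold change of P213L over WT (y axis) of the tested members but 1 (x axis, grouped by complex), in grey with all 7 libraries and in red without WT replicate 3, with bars for the standard error of the red points. The median of all tested members is -0.24 with all libraries and -0.07 without WT replicate 3.

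Complex I oxidises NADH, and its catalytic core is a set of conserved subunits, some encoded in the nucleus, to which many accessory subunits are added. The 7 nuclear core members had a median log2 fold change of -0.17 and the 29 accessory members of -0.26, or -0.07 and -0.07 without WT replicate 3. Ndufv1, whose protein binds NADH and the flavin, had 205, 183 and 199.8 TPM in P213L, against 212.6, 186, 257 and 191 TPM in WT. Ndufs1, which holds iron-sulfur clusters in the matrix arm, had 40.9, 42.5 and 42.3 TPM in P213L, against 42.4, 47.4, 52.7 and 47.0 TPM in WT. In both genes WT replicate 3 was the highest library and the groups overlapped. Their log2 fold changes were -0.10 ± 0.13 and -0.17 ± 0.11 (± standard error from limma), with exact permutation p of 0.600 and 0.0857 (two-sided, 3 against 4 samples, for which the smallest possible p is 0.0286). Without WT replicate 3 they were -0.0024 ± 0.07 and -0.12 ± 0.06.

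The accessory subunit Ndufb9, a part of the proton-pumping membrane arm, had the smallest unadjusted p of the members. The gene lies on chromosome 15 from base 58933756 to base 58939488 on the plus strand (mm10, GENCODE vM21). It had 109, 108 and 106 TPM in P213L, against 147, 132, 236 and 128 TPM in WT, so that every P213L sample was below every WT sample. The mean was 108 ± 1.25 TPM (SD, n = 3) in P213L, against 161 ± 51.1 TPM (SD, n = 4) in WT. The log2 fold change was -0.53 ± 0.21 (limma adjusted p = 0.827) and -0.33 ± 0.06 without WT replicate 3 (limma adjusted p = 0.410). The exact permutation test on log2(TPM + 0.5) gave p = 0.0857. Of its exon bases 19.5% are shared with the readthrough gene model Gm49356 on the same strand, which was listed at 0. Ndufb1, a small membrane-arm subunit on chromosome 12 from base 101968090 to base 101977068 on the minus strand, had 66.2, 74.5 and 63.9 TPM in P213L, against 74.9, 87.6, 151 and 86.8 TPM in WT. Its groups were separate, but by a narrow gap between P213L replicate 2 and WT replicate 1. The log2 fold change was -0.50 ± 0.23 and -0.28 ± 0.09 without WT replicate 3 (limma adjusted p = 0.827 and 0.514). 

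Ndufa1, a small accessory subunit needed for assembly of the complex, was the most abundant complex I member at 477, 431 and 424 TPM in P213L, against 522, 437, 766 and 487 TPM in WT, and its groups overlapped. Ndufb2, another membrane-arm subunit, was the only tested complex I member with a fold change above 0. It had 9.95, 10.05 and 9.35 TPM in P213L, against 8.53, 8.67, 9.96 and 8.07 TPM in WT, where WT replicate 3 reached the P213L range and the other WT samples were below it. The log2 fold change was 0.15 ± 0.12, and 0.20 ± 0.07 without WT replicate 3 (limma adjusted p = 0.540). GENCODE vM21 gives this gene an exon union of 5628 bases, and a TPM value is divided by gene length. Ndufb8, of the same arm and named after its values were seen, had the second most negative fold change among the members, at -0.51 ± 0.24. It had 2.47, 4.08 and 3.71 TPM in P213L, against 5.32, 4.72, 6.82 and 3.61 TPM in WT, with overlap. Its mean of 4.39 TPM was among the lowest of the tested members. Of its exon bases 4.3% are shared with the gene model Gm20538 on the same strand. The paralog copy Ndufb4b, at 2.55 to 6.51 TPM over the 7 libraries, was the only paralog copy to pass the filter.

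Complex II, succinate dehydrogenase, joins the tricarboxylic acid cycle to the chain. Sdha, its flavin-binding catalytic subunit, had 251, 241 and 244 TPM in P213L, against 251, 249.2, 235 and 253 TPM in WT. The 7 values lay close together with WT replicate 3 lowest, and the log2 fold change was -0.01 ± 0.08, or -0.03 ± 0.05 without WT replicate 3. The iron-sulfur subunit Sdhb had 186, 168 and 176 TPM in P213L, against 201, 177, 276 and 172 TPM in WT. Sdhc and Sdhd encode the membrane anchors that bind ubiquinone. Sdhc had 91.2, 85.6 and 80.9 TPM in P213L, against 85.9, 89.2, 119 and 92.5 TPM in WT, and Sdhd had 271, 257 and 261 TPM in P213L, against 266, 273, 364 and 275 TPM in WT. In Sdhb, Sdhc and Sdhd the groups overlapped and WT replicate 3 was highest, and the log2 fold changes were -0.20 ± 0.17, -0.16 ± 0.13 and -0.15 ± 0.13, or -0.05 ± 0.07, -0.06 ± 0.06 and -0.05 ± 0.05 without WT replicate 3.

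Complex III passes electrons from ubiquinol to cytochrome c. Its nuclear redox subunits had fold changes of opposite sign, neither far beyond its standard error. Cyc1, which encodes cytochrome c1, had 305, 287 and 306 TPM in P213L, against 327, 272, 252 and 268 TPM in WT. Uqcrfs1, the Rieske iron-sulfur protein, had 262, 289 and 270.1 TPM in P213L, against 262, 292, 472 and 282 TPM in WT. WT replicate 3 was the lowest library for Cyc1 and the highest for Uqcrfs1, and both genes overlapped between groups, with log2 fold changes of 0.10 ± 0.11 and -0.22 ± 0.20, or 0.06 ± 0.09 and -0.03 ± 0.07 without WT replicate 3. The core proteins Uqcrc1 and Uqcrc2 also had opposite signs when all 7 libraries were used. Uqcrc1 had 149.8, 144 and 143 TPM in P213L, against 154, 150.1, 199.6 and 143 TPM in WT, and Uqcrc2 had 173, 172 and 164 TPM in P213L, against 166, 187, 124 and 175 TPM in WT. WT replicate 3 was the highest library for Uqcrc1 and the lowest for Uqcrc2, and the log2 fold changes were -0.14 ± 0.13 and 0.07 ± 0.15, or -0.03 ± 0.05 and -0.05 ± 0.06 without it. The sign of Uqcrc2 thus turned with that library, as it did under median-of-ratios scaling (-0.02 ± 0.10).

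Among the small complex III subunits, Uqcrb, which contributes to the ubiquinone site, had 173, 186 and 162 TPM in P213L, against 183, 210.2, 374 and 219 TPM in WT. Only P213L replicate 2 reached the WT range, and the log2 fold change was -0.45 ± 0.23, or -0.23 ± 0.09 without WT replicate 3 (limma adjusted p = 0.827 and 0.540). Uqcr10 had 474, 424 and 444 TPM in P213L, against 530.1, 452, 625 and 485 TPM in WT. Uqcr11, the most abundant complex III member, had 635, 531 and 587 TPM in P213L, against 765, 565, 1011 and 587 TPM in WT. Both overlapped between the groups, with exact permutation p of 0.143 and 0.314. Their log2 fold changes were -0.22 ± 0.13 and -0.29 ± 0.21, or -0.13 ± 0.08 and -0.12 ± 0.13 without WT replicate 3.

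Complex IV, cytochrome c oxidase, reduces oxygen, and its nuclear subunits surround a core encoded by the mitochondrial genome. Several of them exist as isoforms with different tissue distribution. Cox6a1, the isoform found in most tissues, was the most abundant member at 2204, 2036 and 2314 TPM in P213L, against 2309.8, 1721, 3271 and 1921 TPM in WT. The P213L samples lay inside the WT range, and the log2 fold change was -0.04 ± 0.21, which became 0.15 ± 0.11 without WT replicate 3. With sample weights Cox6a1 was 0.24 higher in P213L (limma adjusted p = 0.0337). That fit changed the weights of all 7 libraries at once, and the part of any one of them in this value was not tested. Cox4i1, the regulatory subunit on which assembly of the complex starts together with Cox5a, had 834, 722 and 782 TPM in P213L, against 837, 747, 1365 and 761 TPM in WT. Cox5a had 115, 95.1 and 86.2 TPM in P213L, against 107, 106, 182 and 111 TPM in WT. Both overlapped between the groups, and their log2 fold changes were -0.21 ± 0.21 and -0.33 ± 0.21, or -0.01 ± 0.08 and -0.14 ± 0.10 without WT replicate 3.

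Cox6b1, which faces the intermembrane space, had 955, 846 and 799 TPM in P213L, against 1025, 929.9, 1616 and 919 TPM in WT. Cox8a, the second most abundant member, had 1259.6, 1099.6 and 1193 TPM in P213L, against 1440.3, 1119.7, 1454 and 1090.3 TPM in WT. In Cox8a the high WT libraries were replicates 1 and 3, whereas in Cox6b1 replicate 3 alone stood out. The log2 fold changes were -0.34 ± 0.20 for Cox6b1 and -0.10 ± 0.14 for Cox8a, or -0.15 ± 0.08 and -0.03 ± 0.12 without WT replicate 3. Ndufa4, on chromosome 6 from base 11900292 to base 11907497 on the minus strand, had 414, 403 and 383 TPM in P213L, against 444, 449, 792 and 452 TPM in WT. All P213L samples of Ndufa4 were below all WT samples, and the log2 fold change was -0.37 ± 0.21, or -0.16 ± 0.05 without WT replicate 3 (limma adjusted p = 0.827 and 0.524). The small membrane subunits Cox7a2 and Cox7b overlapped between groups, with log2 fold changes of -0.27 ± 0.20 and -0.27 ± 0.19, or -0.08 ± 0.06 and -0.09 ± 0.07 without WT replicate 3. The supercomplex factor Cox7a2l had 307, 285 and 264 TPM in P213L, against 259, 295, 499 and 308 TPM in WT. Here WT replicate 1 was the lowest library and WT replicate 3 the highest.

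The isoforms known from other tissues were low in every cortex. Cox4i2, an isoform of lung that is known to respond to oxygen, had 3.68, 4.19 and 3.86 TPM in P213L, against 3.18, 4.97, 8.54 and 5.31 TPM in WT. Cox6a2, the heart and skeletal muscle isoform, had 20.3, 15.4 and 18.2 TPM in P213L, against 24.4, 17.7, 26.0 and 20.8 TPM in WT. Cox7a1, also of heart and muscle, had 3.65, 6.02 and 4.83 TPM in P213L, against 5.33, 6.67, 8.22 and 4.47 TPM in WT. Their groups overlapped, with log2 fold changes of -0.37 ± 0.28, -0.29 ± 0.17 and -0.32 ± 0.24, or -0.15 ± 0.18, -0.21 ± 0.14 and -0.18 ± 0.20 without WT replicate 3. Among 5 skeletal muscle markers, the muscle creatine kinase Ckm was at no more than 0.0362 TPM in any library, and Myh8 and Tnnt3 were at no more than 0.921 and 0.892 TPM. The others were present in every library, with Acta1 (skeletal actin) at 18.2 to 21.1 TPM in P213L and 18.1 to 31.8 TPM in WT, and Myh3 (embryonic myosin) at 3.64 to 4.55 TPM in P213L and 4.41 to 4.67 TPM in WT. Their part in the level of Cox6a2 was not tested. Cox6b2, known from testis, had 11.8, 10.1 and 10.3 TPM in P213L, against 9.88, 8.84, 11.5 and 9.24 TPM in WT, with a log2 fold change of 0.12 ± 0.13, or 0.19 ± 0.09 without WT replicate 3. Without that library its groups did not overlap. Cox7b2 reached at most 1.42 TPM, and Cox8b and Cox8c were listed at 0 except in WT replicate 3, at 0.458 and 0.120 TPM.

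Complex V makes ATP in its F1 head, whose rotor is turned by a ring of c subunits in the membrane and whose outer part is held by a peripheral stalk. In the F1 catalytic pair the fold changes were smaller than their standard errors. Atp5b, the catalytic beta subunit, had 1132, 1035 and 1043 TPM in P213L, against 1053, 1061, 1008 and 1081 TPM in WT. Atp5a1, the alpha subunit, had 1054, 984 and 1050.4 TPM in P213L, against 1045, 1028, 1122 and 1031 TPM in WT. Both overlapped, with log2 fold changes of 0.03 ± 0.09 and -0.04 ± 0.09, which became -0.06 ± 0.13 and -0.13 ± 0.15 under median-of-ratios scaling. The 3 genes Atp5g1, Atp5g2 and Atp5g3 encode the same mature c subunit, and their median log2 fold change was -0.15. Atp5g3, the most abundant of them, had 441, 393 and 377 TPM in P213L, against 423, 426, 648 and 442 TPM in WT. Atp5g1 had 134, 124 and 123 TPM in P213L, against 132, 122, 185 and 132 TPM in WT, and Atp5g2 had 211, 181 and 192 TPM in P213L, against 203, 173, 258 and 184 TPM in WT. WT replicate 3 was the highest library for each c-ring gene and the groups overlapped. The log2 fold changes were -0.15 ± 0.15 for Atp5g1, -0.06 ± 0.15 for Atp5g2 and -0.24 ± 0.17 for Atp5g3, or -0.02 ± 0.06, 0.06 ± 0.08 and -0.10 ± 0.07 without WT replicate 3.

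The 9 tested stalk and membrane members had a median log2 fold change of -0.29, or -0.08 without WT replicate 3. Atp5o, whose protein links the stalk to the F1 head, had 40.5, 40.8 and 39.5 TPM in P213L, against 53.9, 48.0, 85.9 and 41.8 TPM in WT. All P213L samples were below all WT samples, WT replicate 4 being nearest, and the log2 fold change was -0.45 ± 0.23, or -0.24 ± 0.09 without WT replicate 3 (limma adjusted p = 0.827 and 0.543). Atp5k, the e subunit that helps ATP synthase to form dimers, had 283, 260.3 and 279.8 TPM in P213L, against 439.5, 313, 513 and 281 TPM in WT. P213L replicate 1 was just above WT replicate 4, and the log2 fold change was -0.45 ± 0.21, or -0.30 ± 0.15 without WT replicate 3.

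**Figure D3:**
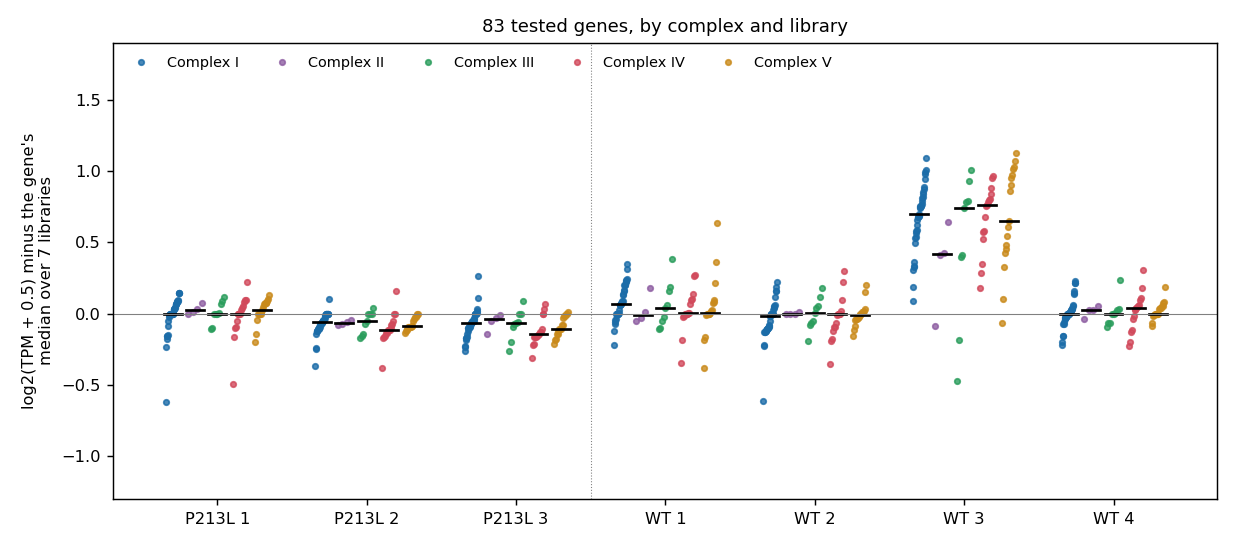
Difference of each tested member's log2(TPM + 0.5) from its median over the 7 libraries (y axis), by library (x axis, P213L left of WT) and complex (colours); points are genes and lines are medians. WT replicate 3 is the highest library in 77 of the 83 members, and the points below 0 there include Sdha, Cyc1 and Uqcrc2.

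In 10 members every P213L sample was below every WT sample (12.05% of 83, against 2.75% of all tested genes), and in 0 every P213L sample was above every WT sample (against 5.94% of all tested genes). These were Ndufa9, Ndufb1, Ndufb5, Ndufb9 and Ndufs4 of complex I, Cox6c, Cox7c and Ndufa4 of complex IV, and Atp5o and Atp5pb of complex V. In 4 of the 10 the gap between the highest P213L and the lowest WT sample was over 5%. The gaps were narrow in Ndufa9, an accessory subunit near the ubiquinone site, with 126, 125 and 121 TPM in P213L, against 128, 132, 146 and 131 TPM in WT. Cox6c, a small membrane subunit, had 152, 148 and 145 TPM in P213L, against 158, 169, 291 and 169 TPM in WT. Another, Cox7c, had 457, 462 and 434 TPM in P213L, against 489, 487, 953 and 550.3 TPM in WT. In Cox6c and Cox7c, as in most of the 10, WT replicate 3 was far above the other WT samples. Ndufb5, of the membrane arm of complex I, had 34.5, 34.8 and 32.3 TPM in P213L, against 36.7, 37.3, 61.6 and 37.2 TPM in WT. Ndufs4, whose loss in mice gives a model of Leigh syndrome, showed how narrow a gap could be, with 80.6, 80.9 and 73.7 TPM in P213L, against 81.4, 81.3, 146 and 82.6 TPM in WT. Atp5pb, a subunit of the peripheral stalk, had 182, 198 and 187 TPM in P213L, against 201, 203, 315 and 206 TPM in WT. Leaving out a library cannot end such a separation, so the count can then only stay or grow, in the members as in all genes. Without WT replicate 3 it was again 10 (12.05%, against 6.89% of all tested genes), and Ndufb2 and Cox6b2 were then separate on the higher side (against 7.33%). It was 35 without P213L replicate 1 (against 4.7% of all tested genes), 13 without P213L replicate 2 (against 6.05%) and 11 without P213L replicate 3 (against 3.88%). It was 20, 21 and 13 without WT replicates 1, 2 and 4 (against 6.47%, 3.9% and 3.97%). Under median-of-ratios scaling it was 9 (against 4.06%).

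**Figure D4:**
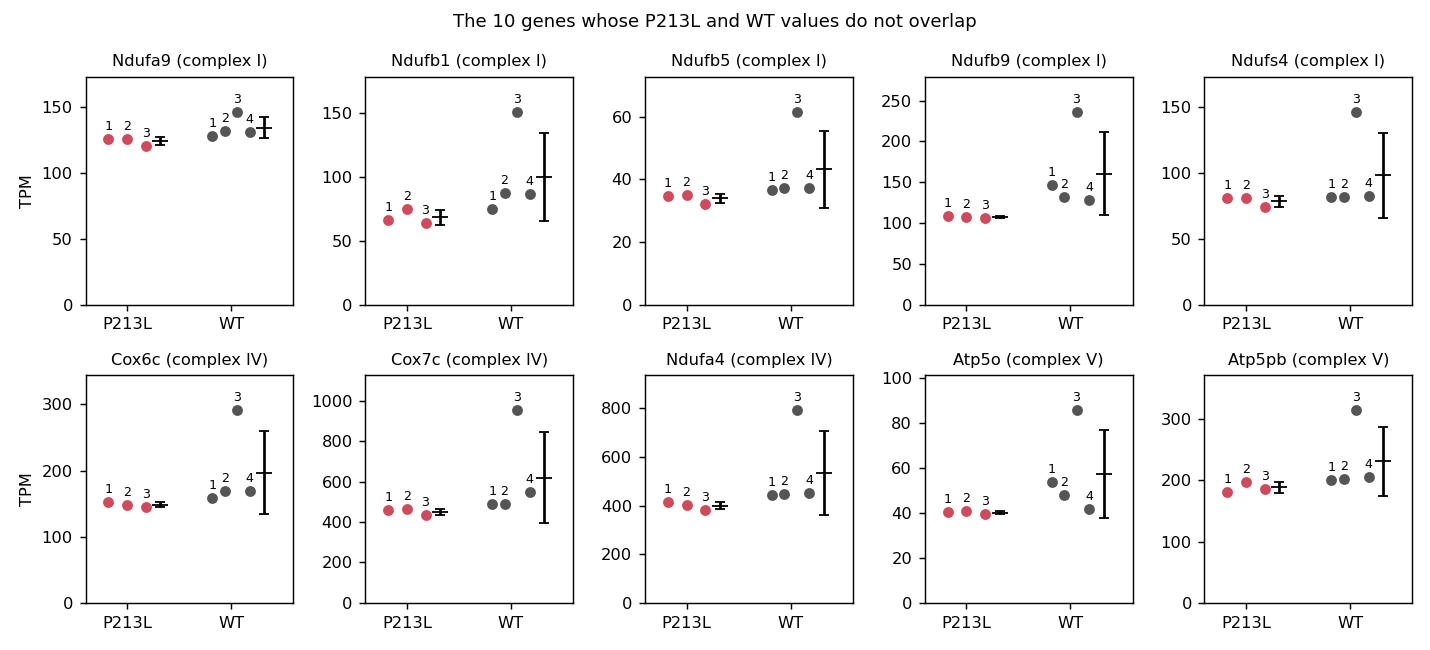
TPM in each sample (y axis, linear) of the 10 members whose groups did not overlap, with P213L left of WT; points are samples with their replicate number and bars give mean and SD. All P213L points lie below all WT points, by a narrow margin in Ndufs4 and a wider one in Ndufb9.

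WT replicate 3 was the highest of the 7 libraries in 77 of the 83 tested members (92.8%), against 21.6% of all tested genes, whereas it was the lowest library in 55.1% of all tested genes. The ratio of WT replicate 3 to the mean of the other WT samples had a median of 1.62 over the members and of 0.793 over all tested genes. It ran from 0.706 in Uqcrc2 to 2.28 in Atp5l, the g subunit of ATP synthase. Of the 6 members for which it was not the highest library, Sdha, Cyc1, Uqcrc2 and Atp5b had ratios of 0.936, 0.872, 0.706 and 0.947, and Ndufb2 and Cox6b2 had ratios of 1.183 and 1.23. Short abundant genes were high in WT replicate 3 in general. Among 952 other genes of at least 50 TPM with under 2500 exon bases the median ratio was 1.33 and WT replicate 3 was highest in 72.4%, against a median of 1.65 and 98.2% of the 55 members in that class. Across genes, which are not independent replicates, exon length and the ratio had a Spearman correlation of -0.28 over 81 members and -0.36 over 16597 tested genes, all read from the same libraries. After a trend on gene length had been removed from each library, the members' median log2 fold change was -0.23, and -0.08 without WT replicate 3.

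**Figure D5:**
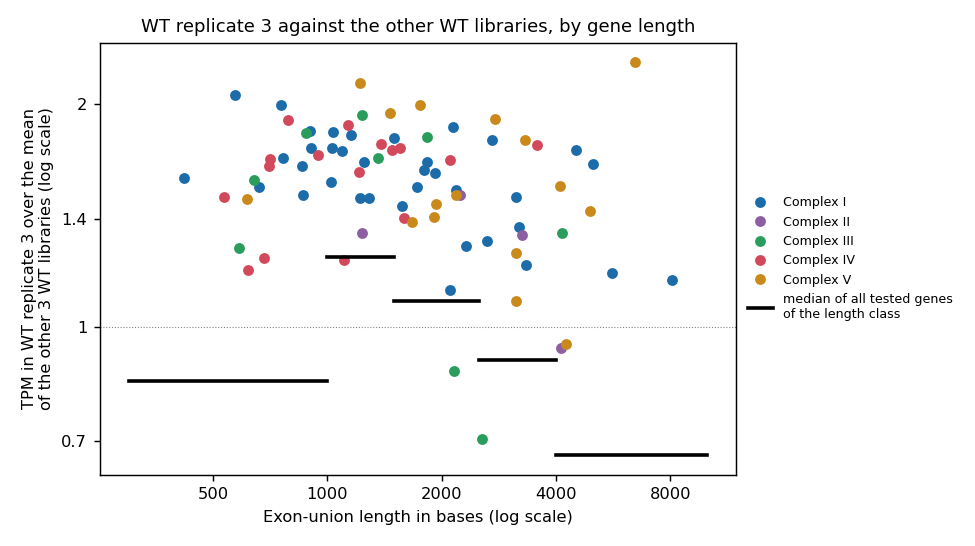
Ratio of WT replicate 3 to the mean of the other WT samples (y axis, log scale) against exon-union length in bases (x axis, log scale), for members (points, coloured by complex) and for all tested genes (lines, the median of each length class). Members lie mostly above 1, with a median of 1.62 over all tested members, and Uqcrc2 is the lowest at 0.706.

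Fold changes were also set against the upstream motifs. The 13 members with an NRF1 match had a median log2 fold change of -0.17 and the 55 without of -0.24, or -0.03 and -0.07 without WT replicate 3. For the ETS motif the medians were -0.26 with a match (12 members) and -0.24 without (56 members), and both were -0.07 without WT replicate 3. Nrf1, the gene of the factor itself, had 9.39, 9.11 and 9.36 TPM in P213L, against 8.78, 8.80, 6.27 and 8.65 TPM in WT. Every P213L sample was above every WT sample, with WT replicate 3 lowest, and the log2 fold change was 0.19 ± 0.15, or 0.08 ± 0.07 without it (limma adjusted p = 0.827 and 0.705).

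The 13 mitochondrially encoded subunits, the partners of complexes I, III, IV and V made inside the organelle, summed to 37959, 60360 and 50414 TPM in P213L, against 49308, 75094, 61832 and 66951 TPM in WT. The libraries varied widely within each group and the groups overlapped. Their median log2 fold change was -0.42 with 12 of 13 below 0, and -0.40 with 13 of 13 below 0 without WT replicate 3. Levels differed widely within the list, from 12141 to 20499 TPM for mt-Co1 down to 0.881 to 16.3 TPM for mt-Atp8. The genes mt-Atp6, mt-Atp8, mt-Co2, mt-Co3, mt-Nd3 and mt-Nd4l reached at most 347 TPM in any library. The sum thus mainly follows the other genes, while the median counts each gene alike. The reason for the low levels was not tested. No gene of the list passed the test with limma, and 0 were past an unadjusted p of 0.05 (against 1.38% of all tested genes lower and 2.36% higher). Without WT replicate 3, 0 passed and 1 was lower at an unadjusted p below 0.05 (against 3.95% of all genes). With all 7 libraries the smallest p belonged to mt-Nd1 and mt-Nd6, both core subunits of complex I. Their log2 fold changes were -0.54 ± 0.25 and -1.01 ± 0.50, or -0.46 ± 0.25 and -0.79 ± 0.49 without WT replicate 3. Among the P213L samples, replicate 1 had the lowest sum of these genes and the highest sum of the nuclear members.

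Other genes that serve the chain had medians closer to 0 than the members when all 7 libraries were used. With limma 0 of the 113 tested passed the test. At an unadjusted p below 0.05, 2 were higher in P213L (1.77%, against 2.36% of all tested genes) and 0 were lower (against 1.38%). Without WT replicate 3, 3 were higher (against 4.7% of all genes) and 4 were lower (against 3.95%). The median log2 fold change was -0.07 for 16 assembly factors of complex I (11 below 0), and turned to 0.02 without WT replicate 3 (7 below 0). For 30 tested assembly factors of complexes II to V it was -0.04 (18 below 0), or -0.02 without that library. For 15 genes of cytochrome c and coenzyme Q synthesis the median was -0.09 (12 below 0), or -0.03 without it. For 16 genes of the tricarboxylic acid cycle it was -0.05 (12 below 0), or -0.07 without it, which was as far below 0 as the members' -0.07. For 18 genes of mitochondrial import and cristae it was -0.07 (14 below 0), or -0.03 without it. The 18 tested regulators of mitochondrial gene expression had a median of 0.09 (7 below 0), which was -0.02 without WT replicate 3 and -0.002 under median-of-ratios scaling.

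Bcs1l, which inserts the Rieske protein into complex III, had 33.8, 34.0 and 31.0 TPM in P213L, against 31.1, 23.8, 26.9 and 26.6 TPM in WT. Its log2 fold change was 0.28 ± 0.12, or 0.28 ± 0.10 without WT replicate 3 (limma adjusted p = 0.827 and 0.540). Twnk, the mitochondrial DNA helicase, had 17.8, 16.8 and 16.4 TPM in P213L, against 15.3, 13.9, 13.3 and 14.4 TPM in WT, so every P213L sample was above every WT sample. Its log2 fold change was 0.25 ± 0.10, or 0.22 ± 0.07 without WT replicate 3 (limma adjusted p = 0.827 and 0.518). Polrmt, the mitochondrial RNA polymerase, had 34.2, 31.98 and 34.6 TPM in P213L, against 33.9, 25.6, 19.6 and 26.6 TPM in WT, and its groups overlapped. Tomm22, a receptor of the outer membrane import machinery, had 113, 112 and 110.1 TPM in P213L, against 118, 131, 191 and 122 TPM in WT. Vdac1, the main channel of the outer membrane, had 653, 660.1 and 656 TPM in P213L, against 706, 688, 821 and 708 TPM in WT. In both of these every P213L sample was below every WT sample, with log2 fold changes of -0.30 ± 0.17 and -0.15 ± 0.10, or -0.14 ± 0.06 and -0.09 ± 0.05 without WT replicate 3.

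The genes with the smallest p in the remaining lists were lower in P213L without passing the test. In cytochrome c and coenzyme Q synthesis these were Hccs, which attaches heme to cytochromes c and c1, at -0.21 ± 0.11, and Coq8a, a kinase-like protein of coenzyme Q synthesis, at -0.22 ± 0.11, on the log2 fold change scale. Both were without overlap between the groups. Among assembly factors, Ndufaf1 and Lyrm2 of complex I had log2 fold changes of -0.23 ± 0.17 and -0.15 ± 0.09, and Pet100 of complex IV had -0.35 ± 0.18. In the tricarboxylic acid cycle, Sucla2, a subunit of succinyl-CoA ligase, and Dld, a shared subunit of the 2-oxoacid dehydrogenases, had log2 fold changes of -0.28 ± 0.18 and -0.23 ± 0.16. Without WT replicate 3 the values of these genes were -0.18 ± 0.08 for Hccs, -0.25 ± 0.08 for Coq8a, -0.08 ± 0.08 for Ndufaf1, -0.12 ± 0.05 for Lyrm2, -0.22 ± 0.12 for Pet100, -0.12 ± 0.08 for Sucla2 and -0.13 ± 0.11 for Dld.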

How the data were processed

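Poly(A) RNA libraries were made with a strand-specific kit from TRIzol-extracted cortex, per the labels' protocols. The submitters' processing notes name HISAT2, HTSeq and mm10, without versions. The annotation, the gene lengths and the strand setting of the counting are not stated in the sources at hand. The deposited values are TPM, as the file headers name them, and each column adds up to 1000000, so that an abundant transcript in 1 library lowers its other values. Read totals are lost in TPM. To estimate depth, TPM were multiplied by GENCODE vM21 exon-union lengths and the commonest low product was taken as 1 counted unit. Of the low products, 63.8 to 72.1% per library were whole units and 95.1 to 96.0% were whole or half-integer units. Whether 1 unit is 1 counted read is thus not known. Tests for counts were not run.

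Samples were grouped by title. Members were found by symbol and assigned to complexes by hand. The paralog copies Ndufa11b, Ndufb4b, Ndufb4c, Ndufb11b, Ndufs6b and Cox6c2 were assigned after the table had been seen. The members and the gene lists were chosen with earlier results of these data known. For 17582 genes averaging 1 TPM or more, limma 3.58.1 (R 4.3.3) compared log2(TPM + 0.5) two-sided with a mean-variance trend, adjusting p over all of them by Benjamini-Hochberg at a threshold of 0.05. Such fold changes understate the change of low genes. Single genes were compared by exact permutation over the 35 possible assignments of group labels. Described in full were, in each complex, the most abundant member, the 2 with the smallest p and the member most opposed to the complex's median, together with catalytic subunits and isoform pairs, of which 1 gene is not reported here. In the other lists the 2 genes with the smallest p were named. Nrf1, Ndufb8, Uqcrc2, Ndufa9, Ndufb5, Cox6c, Cox7c, Ndufs4 and Atp5pb were added after their values were seen.

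Alternatives changed the pseudocount, the filter, the scaling, the variance model (no trend, robust) or the sample weights, added a block for the replicate number, removed a trend on gene length, or left out each sample in turn. Leaving out WT replicate 3 together with median-of-ratios scaling, or with the length trend removed, was chosen after seeing the data. Coordinates are from GENCODE vM21 (mm10) and upstream sequences from RefSeq (GRCm38.p6). Both strands were searched, and an NRF1 match may overlap another match. Tables and figures were made with Python 3.11.15, pandas 2.3.3 and matplotlib 3.10.9.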

Additional observations from a re-analysis of the deposited data

Results flagged for a closer look

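The outlying samples found in the WT group were all WT replicate 3. Its highest or lowest gap to the nearest sample was compared with Dixon's 95% critical value in 47 measures. These included the named members and the summed level of each complex, and 16 passed. For Cox8b and Cox8c this was fixed, since the other WT values were 0, and their levels came to 3 and 1 counted units. Chance gives about 1 in 20 for a single measure. The measures come from the same libraries, and the sums contain named members, so they are not independent of each other. The P213L group, with 3 samples, was not looked at in this way.

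In complex I, Ndufb1 stood at 151.0 TPM in WT replicate 3, and the complex summed to 10505 TPM. In complex II, Sdhd stood at 364.0 TPM there, and the complex summed to 994.0 TPM. Uqcrfs1 of complex III was at 472.3 TPM. In complex IV, Cox4i1 was at 1365 TPM, Cox5a at 181.6 TPM, Cox6b1 at 1616 TPM, Cox7a2 at 596.6 TPM, Cox7b at 496.3 TPM and Ndufa4 at 792.5 TPM. Cox8b and Cox8c were at 0.458 and 0.120 TPM in WT replicate 3 and listed at 0 in the other 6 libraries. In complex V, Atp5g1 was at 184.8 TPM and Atp5g3 at 648.5 TPM, and the complex summed to 7426 TPM.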

How the results depend on the processing

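Calls at an adjusted p below 0.05 stayed at 0 of the members and 0 of all tested genes under every alternative except sample weights, which called 21 members and 3981 genes with limma. Of the members, 1 was lower at an unadjusted p below 0.05 in the reported fit. That count was 0 under median-of-ratios scaling (2.01% of all tested genes), 2 under quantile normalization (2.33%), 2 with the mitochondrially encoded genes removed (1.68%), 3 with the length trend removed (2.62%) and 34 with sample weights (18.1%). It was 7 when WT replicate 3 was left out together with median-of-ratios scaling (4.03%) or with the length trend (4.74%). Leaving out 1 sample at a time gave 0 to 7, with 0 for each P213L sample left out (0.621 to 1.16% of all tested genes), 3 and 4 without WT replicates 1 and 2 (2.27% and 1.06%), 7 without WT replicate 3 (3.95%) and 4 without WT replicate 4 (1.07%). The count of members without overlap, 10, ran from 10 to 35 with 1 sample left out, the highest without P213L replicate 1 (3.88 to 6.89% of all tested genes over these). Leaving out a sample cannot lower it, so this range says nothing about stability. It was 9 under median-of-ratios scaling (4.06%). This count was not computed under quantile normalization, sample weights, no trend, robust fitting, the block or the length trend. The median log2 fold change of the members stayed below 0 throughout, from -0.30 to -0.07 with 1 sample left out. Over all genes, 242 were lower and 415 higher at an unadjusted p below 0.05, against 352 and 376 under median-of-ratios scaling. Cox6a1 was reversed with sample weights (0.24). For 36 named genes, 718 values kept direction and side of the threshold, and 10 passed it in the same direction. Sign changed with neither value past it in 23, and in 1 more by a larger step. The causes were not tested.

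With the replicate number as a block, 4 members were lower at an unadjusted p below 0.05 (1.08% of all tested genes), 0 passed, and the median was -0.28. Deviations of same-numbered samples correlated at 0.13, 0.17 and -0.10. Replicates 1 and 2 correlated best with their own number in both directions, and replicate 3 did not. Whether the numbers pair the samples is therefore not known, and the reported fit did not pair them.

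The estimated 57.2 to 79.4 M counted units per library rest on annotated lengths and on the unit chosen, so no counting intervals are given. The 3 P213L and 4 WT samples, with WT replicate 3 apart from the rest, limit the precision of every fold change.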
